A study of Homo sapiens with 3 samples.

Results

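The genes described here are the SR and hnRNP splicing factors, measured by RNA sequencing in Caco-2 cells. They were chosen by symbol: protein-coding genes whose symbol starts with SRSF or HNRNP, together with TRA2A and TRA2B. The rule gave 41 of the 60664 genes in the deposited table. Of these, 14 are SR or SR-like genes and 27 are hnRNP genes. No expression value was used to choose them.

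SR proteins carry RNA recognition motifs and a tail rich in arginine and serine, bind enhancers in exons and recruit the splicing machinery to nearby splice sites. The hnRNP proteins coat nascent transcripts in the nucleus and often act against SR proteins, by keeping the machinery away from an exon, although many of them also take part in mRNA export, stability and translation. Many genes of both families make alternative transcripts that carry a premature stop codon and are degraded, and the gene-level counts used here do not separate these from the coding transcripts.

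Caco-2 is a line of human colon carcinoma cells often grown as a model of gut epithelium, and the labels give its genotype as WT in all groups. The 3 groups had 1 library each. Control cells received no treatment, the DSS group received 3% dextran sulfate sodium (DSS), a sulfated polysaccharide used to provoke colitis in rodents, for 8 h, and the third group received 30 µM polydatin, a glucoside of resveratrol, for 2 h and then polydatin with 3% DSS for 8 h. The title of the series places these groups in a study of polydatin, DSS injury and ferroptosis. Further groups of the design text, with erastin or Fer-1, were not analysed here.

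Library totals lay between 16667622 and 18825914 counts, and 14792 genes were measured, meaning that they reached 1 CPM (counts per 1000000 of the scaled library total) in at least 1 library. Among the 8 epithelial markers, EPCAM, CDH1, VIL1, KRT8, KRT18 and CDX2 were measured, CDX1 had no count and KRT20 had 8 to 10 counts per library. Of the leukocyte markers reported here, PTPRC had no count, and CD3E and CD68 had at most 5. Of 4 fibroblast markers, COL1A1, between 37.8 and 43.3 CPM, and PDGFRA, at 18.8 CPM in control, 10.0 after DSS and 9.41 after DSS with polydatin, were measured, while COL1A2 and DCN had at most 3 counts. Of 3 endothelial markers, PECAM1 stood at 24.4, 16.0 and 9.52 CPM and VWF at 0.496, 1.19 and 3.90 CPM, while CDH5 had at most 3 counts. The part of these markers in the results was not tested.

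Of the 41 genes, 34 were measured, 13 SR or SR-like and 21 hnRNP. The lowest count of a measured gene in any library was 921, so that all 34 were far above the level of 3 counts, which lies between 0.162 and 0.172 CPM here. The other 7 had no count or few counts. HNRNPA1L2, HNRNPCL1, HNRNPCL2, HNRNPCL3, HNRNPCL4 and the readthrough gene HNRNPUL2-BSCL2 had no count in any library. Of its 4001 exon bases, HNRNPUL2-BSCL2 shares 2391 with HNRNPUL2 and 1610 with BSCL2, on the same strand. How reads that match more than 1 gene were counted is not stated, so the absence of counts does not show that a gene was silent. SRSF12, a relative of SRSF10, had 3 counts in control and 1 in each treated library.

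Together the 34 genes held 1.587% of all counts of the control library (95% exact interval 1.582 to 1.593), 1.363% of the DSS library (1.357 to 1.368) and 1.136% of that with DSS and polydatin (1.131 to 1.141). The share was highest in control and lowest in DSS with polydatin. The hnRNP genes went from 1.245% to 1.044% and 0.8555%, and the SR genes from 0.3424% to 0.3185% and 0.2805%. These intervals, like all those given here, cover counting error only. Reads sequenced without molecular identifiers may be copies of 1 molecule, so the intervals may be too narrow even for that. With 1 library per group there is no replicate check and no p-value, each ratio compares 2 libraries, and in such bulk samples fewer cells and less RNA per cell cannot be told apart.

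**Figure D1:**
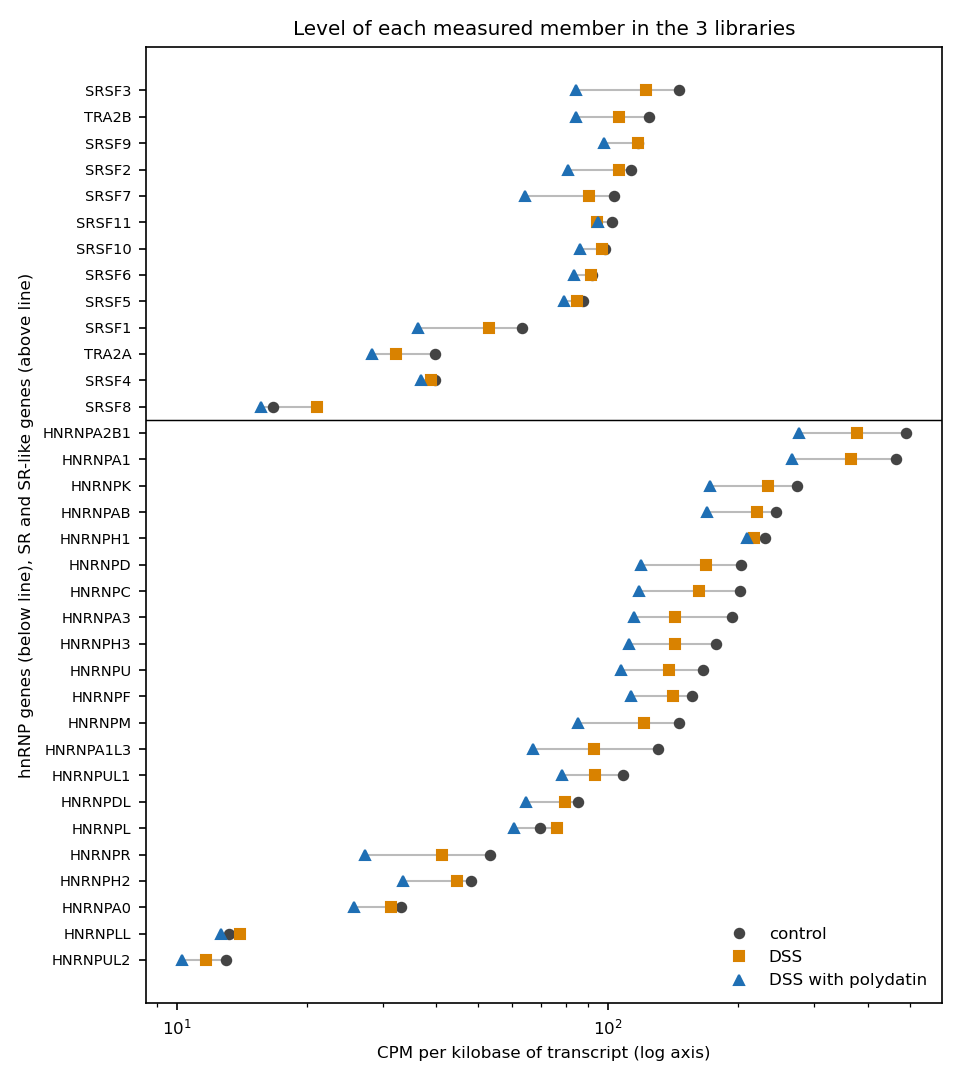
Level of the 34 measured SR and hnRNP genes in the 3 libraries, in CPM per kilobase of transcript on a log axis, with 1 point per library and a grey line joining the 3 points of a gene. HNRNPA2B1 and HNRNPA1 lie at the top of the hnRNP genes, at 489 and 463 CPM per kilobase in control, and for every gene except SRSF11 (with libraries scaled by totals alone, also except HNRNPH1, HNRNPLL, SRSF4 and SRSF8) the point of DSS with polydatin is the leftmost of the 3.

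On a per-length scale, which allows levels of different genes to be compared, the hnRNP genes spanned 13.0 to 489 CPM per kilobase in control and the SR genes 16.7 to 146, with medians of 156 and 98.4. HNRNPA2B1, at 489 CPM per kilobase, and HNRNPA1, at 463, stood above HNRNPK at 274. The most abundant SR gene was SRSF3 at 146 CPM per kilobase, followed by TRA2B at 124 and SRSF9 at 117. For comparison, the median of all measured protein-coding genes was 9.27 CPM per kilobase. The plot of levels by library shows these values, with SRSF8, HNRNPLL and HNRNPUL2 at the low end.

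The comparison of DSS with control asks how the toxin changes these transcripts. Most of them were slightly lower. The median log2 ratio of the 34 genes was -0.17, against -0.01 over all measured genes, and 30 of the 34 had a ratio below 1. The 4 others were SRSF8, HNRNPL, HNRNPLL and SRSF9, with SRSF6 joining them when libraries were scaled by their totals alone and SRSF9 leaving them under DESeq2 size factors. SRSF6 and SRSF10 also lay above 1 with a trend on GC content and length removed. None of the 34 was at least 1.5-fold higher or lower with a 95% counting interval that excluded 1, the rule used throughout to call a gene, whereas 9.45% of all measured genes were called higher and 5.81% lower.

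With no minimum size, 26 of the 34 genes had an interval wholly below 1 and 2 had one wholly above, beside 27.2% and 26.1% of all measured genes. Since abundant genes have narrower intervals, the 4740 protein-coding genes with a mean of at least 50 CPM, a set chosen after the values were seen, make a closer background, and among these 42.4% had an interval below 1. At 1.5-fold, 3.67% of this set was called lower. With a smaller threshold of 5 to 4, 5 of the 34 genes were called lower and 1 higher, beside 14.2% and 16.8% of all measured genes, and with 2-fold none, beside 1.76% lower and 4.24% higher. The median was -0.22 for the hnRNP genes and -0.09 for the SR genes. The hnRNP A/B group stood lowest, with a median of -0.36 over its 6 measured genes, and the SR proteins with 2 RNA recognition motifs stood highest, with a median of -0.02 over 5 genes.

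The comparison of DSS with polydatin against DSS asks how the library with polydatin differs from that with DSS alone. No group with polydatin alone was analysed here, so what polydatin does without DSS cannot be told apart. Most of the genes were lower here too. SRSF8, HNRNPLL, HNRNPL and SRSF9 had ratios above 1 in DSS against control. For HNRNPLL (0.971 to 1.16) and SRSF9 (0.951 to 1.06) that interval included 1. In DSS with polydatin these genes stood at 0.939, 0.961, 0.871 and 0.836 of control, in that order. The median log2 ratio was -0.34, against -0.01 over all measured genes, and 33 of the 34 genes lay below 1, with SRSF11 at 1.00 and below 1 under DESeq2 size factors. Under scaling by library totals alone, HNRNPH1, SRSF11 and SRSF4 lay above 1 and 31 of 34 below. HNRNPR was the single gene called lower, at 0.662 (0.635 to 0.690), and none was called higher, beside 2.60% and 5.39% of all measured genes. This call was lost under scaling by totals, which also moved the calls over all genes from 797 higher and 384 lower to 1132 and 234. Intervals lay wholly below 1 for 32 genes, beside 25.8% of all measured genes and 49.5% of the abundant protein-coding genes, and wholly above 1 for none, beside 20.2% of all measured genes. Of the abundant genes 1.92% were called lower. With the threshold of 5 to 4, 19 of the 34 genes were lower and none higher, beside 10.5% and 11.3% of all measured genes, and with 2-fold none was called, beside 0.460% lower and 1.94% higher. The DSS library stands in this comparison and in that of DSS with control, so the ratios of a gene in the 2 comparisons are not independent.

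The comparison of DSS with polydatin against control combines both steps. A step here is a difference between 2 libraries and not a course in time, since polydatin was given before DSS. Here 14 of the 34 genes were called lower and none higher, beside 12.4% of all measured genes called lower and 16.0% called higher. Among the abundant protein-coding genes 13.4% were called lower. The median log2 ratio of the 34 genes was -0.51, against -0.02 over all measured genes and -0.13 over the abundant protein-coding genes. All 34 lay below 1, and 32 had an interval wholly below 1, beside 34.4% of all measured genes and 53.5% of the abundant ones. No interval lay wholly above 1, beside 30.7% of all measured genes. With the threshold of 5 to 4, 24 of the 34 genes were lower and none higher, beside 24.3% and 23.5% of all measured genes, and with 2-fold none was called, beside 3.27% lower and 8.53% higher. Under scaling by totals 31 of 34 lay below 1, the exceptions being HNRNPLL, SRSF4 and SRSF8, and 10 were called lower, while the calls over all genes went from 2367 higher and 1829 lower to 2957 and 1238.

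**Figure D2:**
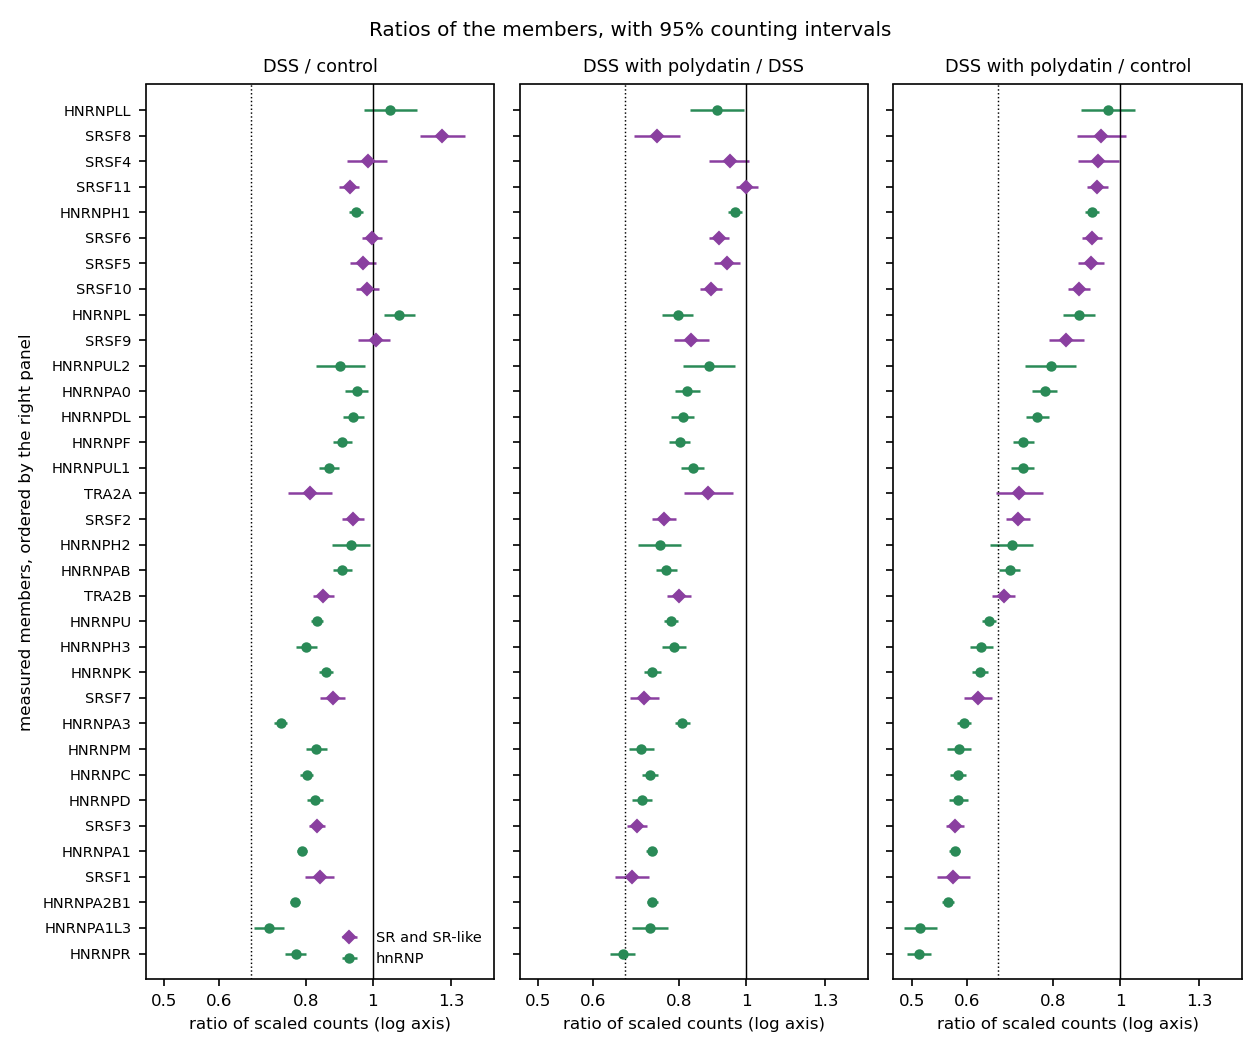
Ratio of scaled counts for each of the 34 measured genes in the 3 comparisons, on a log axis, with 95% counting intervals; diamonds are SR and SR-like genes, circles are hnRNP genes, the solid line marks 1 and the dotted line a 1.5-fold lower value. In the right panel 14 genes lie left of the dotted line with HNRNPR lowest at 0.512, while HNRNPLL, SRSF8 and SRSF4 lie nearest to 1, on its other side when libraries are scaled by totals alone.

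The genes called lower in that comparison were 11 hnRNP genes (HNRNPR, HNRNPA1L3, HNRNPA2B1, HNRNPA1, HNRNPC, HNRNPD, HNRNPM, HNRNPA3, HNRNPK, HNRNPH3 and HNRNPU) and 3 SR genes (SRSF1, SRSF3 and SRSF7). Their ratios ran from 0.512 to 0.646. The 4 calls lost under scaling by totals were HNRNPH3, HNRNPK, HNRNPU and SRSF7, with 8.33% of all measured genes then called lower. With a trend on GC content and transcript length removed, 13 genes were called lower. These were 11 of the 14, without HNRNPH3, HNRNPK and SRSF7, and in addition HNRNPAB and HNRNPUL1, beside 13.4% of all measured genes, and HNRNPLL then lay above 1. At the other end, SRSF4, SRSF5, SRSF6, SRSF8, SRSF11, HNRNPH1 and HNRNPLL lay between 0.906 and 0.961. The median log2 ratio was -0.63 for the hnRNP genes and -0.26 for the SR genes.

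**Figure D3:**
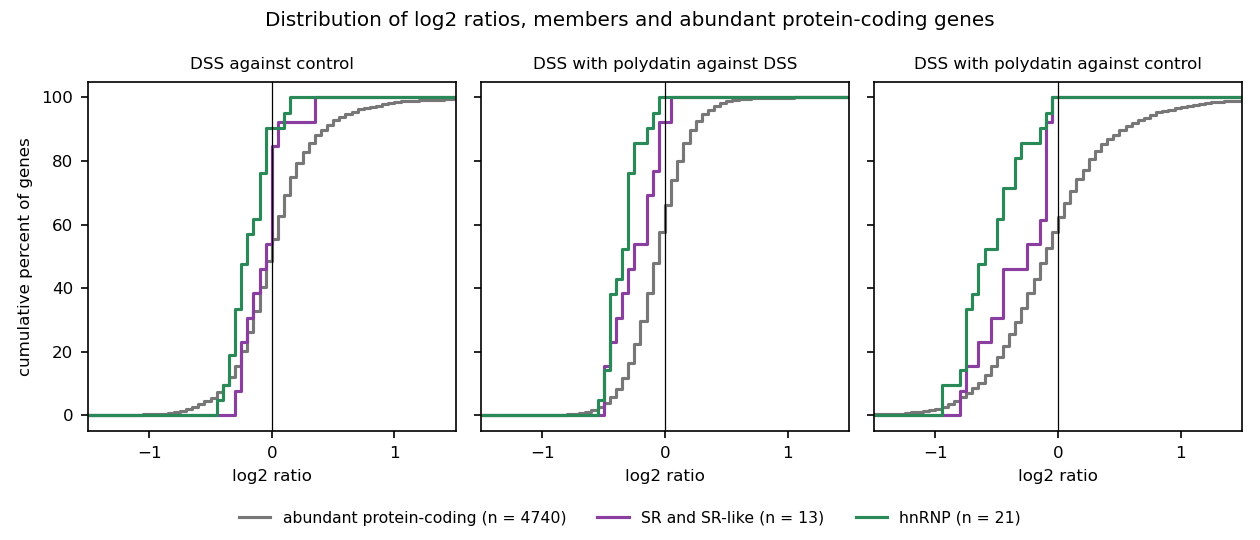
Cumulative distribution of log2 ratios in the 3 comparisons for 13 SR and SR-like genes, 21 hnRNP genes and 4740 protein-coding genes with a mean of at least 50 CPM; the vertical line marks a log2 ratio of 0. The hnRNP curve lies left of the grey curve over most of its course in each panel, with medians of -0.22, -0.36 and -0.63, against -0.04, -0.09 and -0.13 for the grey curve.

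Other features of these RNA samples also differed between the libraries. The nuclear long noncoding RNA MALAT1 stood at 413 CPM in control, 566 after DSS and 912 after DSS with polydatin. NEAT1, another nuclear RNA, stood at 459, 1002 and 1514 CPM. The mitochondrially encoded share of counts was 5.31%, 4.77% and 4.34%. Of 23 measured histone genes, whose transcripts mostly lack a poly(A) tail, 16 were called higher in DSS against control, beside 9.45% of all measured genes, 14 in DSS with polydatin against control, beside 16.0%, and none in DSS with polydatin against DSS. Their median log2 ratios were 0.99, 0.86 and 0.05 in that order, so the histone genes did not follow the order of the SR and hnRNP genes. The 6 measured epithelial markers had a median log2 ratio of 0.22 in DSS against control, with 5 of 6 above 1, and of -0.32 in DSS with polydatin against DSS, with 5 of 6 below 1. Against control in DSS with polydatin the median was -0.11, or 0.00 under scaling by totals. CDX2, a transcription factor of intestinal identity, was the epithelial marker called, at 147, 118 and 78.3 CPM, with 0.665 (0.621 to 0.712) in DSS with polydatin against DSS, a call lost under scaling by totals, and 0.533 (0.499 to 0.569) against control. The part of epithelial state and of RNA composition in the lower SR and hnRNP counts was not tested.

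Among the SR proteins with 2 RNA recognition motifs, SRSF1 went apart from the other 4. SRSF1, the founding SR protein, which binds purine-rich exonic enhancers, stood at 196 CPM in control, 165 after DSS and 113 after DSS with polydatin. Its ratio was 0.839 (0.799 to 0.880) in DSS against control and 0.684 (0.646 to 0.724) in DSS with polydatin against DSS, and it reached 0.573 (0.543 to 0.606) of control. SRSF1 shares 1890 of 3340 exon bases with a protein-coding gene on the same strand that had no count. How reads in the shared bases were counted is not stated. SRSF6, which also binds exonic enhancers, stood at 396, 394 and 359.9 CPM and reached 0.909 (0.879 to 0.941) of control. SRSF5 stood at 246, 238 and 223 CPM, a ratio to control of 0.906 (0.868 to 0.946). SRSF4, the SR protein with the longest tail, stood at 94.5, 92.9 and 87.9 CPM, with 0.930 (0.868 to 0.997), and was at a log2 ratio of 0.00 under scaling by totals. SRSF9 was at 140.1 and 141 CPM in control and DSS and at 117 in DSS with polydatin. Its exons overlap those of GATC on the opposite strand over 1729 of 3744 bases. The strand setting of the counting is not given in the sources used here, so reads of the overlapping genes cannot be told apart. GATC itself stood at 69.9, 63.2 and 55.0 CPM.

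Among the SR proteins with 1 RNA recognition motif, SRSF3 and SRSF7, close relatives that couple splicing to mRNA export, were lowest. SRSF3 stood at 618 CPM in control, 513 after DSS and 356 after DSS with polydatin, so that the last library held 0.577 (0.559 to 0.595) of the control level. SRSF7 stood at 256, 224 and 159.5 CPM, with a ratio of 0.623 (0.594 to 0.653). For both genes the step from DSS to DSS with polydatin, 0.694 (0.672 to 0.717) and 0.712 (0.678 to 0.747), was larger than the step from control to DSS. SRSF2, a marker protein of nuclear speckles, stood at 327, 306 and 232 CPM, which is 0.712 (0.684 to 0.741) of control and was not called. SRSF2 shares 1106 of 3017 exon bases with MFSD11 on the opposite strand, which went the other way, from 34.1 to 36.9 and 50.4 CPM.

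SRSF10 and SRSF11 were lower by less than SRSF3 and SRSF7. In DSS with polydatin they stood at 0.872 (0.840 to 0.905) and 0.927 (0.896 to 0.959) of control. SRSF10, known as a repressor of splicing in heat-shocked cells, stood at 343, 337 and 299 CPM. SRSF11 stood at 386, 357 and 358 CPM, and its ratio of DSS with polydatin to DSS, 1.00 (0.967 to 1.04), was the highest of the 34 genes. SRSF8, a relative of SRSF2, had the highest ratio of the 34 genes in DSS against control. It stood at 67.5 CPM in control, 85.3 after DSS and 63.4 after DSS with polydatin, a ratio of 1.26 (1.17 to 1.36) followed by 0.743 (0.687 to 0.802). HNRNPL, HNRNPLL and SRSF9 were the other genes with their highest CPM in DSS.

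The SR-like genes TRA2A and TRA2B, whose proteins bind GAA-rich enhancers, were lower in both treated libraries and not called. TRA2B stood at 367, 312 and 249 CPM, with 0.678 (0.653 to 0.705) of control. TRA2A stood at 88.4, 71.7 and 63.2 CPM, with 0.715 (0.661 to 0.772). Their intervals overlap, and the ratio of TRA2A to TRA2B counts within a library was 0.241 (0.228 to 0.254), 0.230 (0.217 to 0.244) and 0.254 (0.237 to 0.271).

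The hnRNP A/B genes held the largest block of counts and were all lower in both treated libraries, by differing amounts. HNRNPA1, a shuttling protein that represses exons, stood at 1909 CPM in control, 1509 after DSS and 1101 after DSS with polydatin. Its ratios were 0.791 (0.778 to 0.803), 0.729 (0.716 to 0.743) and, over both steps, 0.576 (0.566 to 0.587). HNRNPA2B1, its closest partner in abundance, stood at 1793, 1383 and 1011 CPM, and reached 0.564 (0.553 to 0.574) of control. The ratio of HNRNPA2B1 to HNRNPA1 counts within a library was 0.939 (0.925 to 0.954), 0.916 (0.901 to 0.932) and 0.918 (0.900 to 0.937), so that these abundant genes kept nearly the same proportion to each other.

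HNRNPA3, a relative of HNRNPA1, stood at 1103, 812 and 656 CPM. Its largest step was the first, 0.736 (0.720 to 0.751) in DSS against control, and the second was 0.808 (0.789 to 0.828). HNRNPAB and HNRNPA0 were lower by less. HNRNPAB stood at 440.3, 398 and 305 CPM, with 0.692 (0.668 to 0.716) of control. HNRNPA0 stood at 289, 274 and 225 CPM, with 0.778 (0.746 to 0.811). Of the 6 measured genes of the group, 4 were called lower in DSS with polydatin against control, beside 12.4% of all measured genes and 13.4% of the abundant ones. None was called lower in DSS against control or in DSS with polydatin against DSS, beside 5.81% and 2.60% of all measured genes.

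HNRNPA1L3 stood at 205, 145 and 105 CPM, the lowest ratio in DSS against control among the 34 genes, 0.709 (0.674 to 0.745), and 0.514 (0.486 to 0.544) over both steps. It is a near copy of HNRNPA1, and 693 of the 1523 windows of 50 bases along its transcript (45.5%) occur unchanged in HNRNPA1 transcripts. The counting could have split or moved reads between these genes, so its counts are uncertain. The 74 annotated pseudogene rows of HNRNPA1, which are outside the 41 genes, showed the same order, with sums of 2084, 1563 and 999 counts, a ratio of 0.499 (0.462 to 0.539). The 16 pseudogene rows of HNRNPA3 summed to 464, 334 and 226 counts. All 136 pseudogene rows of the 2 families together held 3287, 2524 and 1712 counts, at most 1.10% of what the rows and the 34 genes held together.

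HNRNPC, whose protein binds uridine tracts and stays in the nucleus, stood at 909 CPM in control, 729.6 after DSS and 529.9 after DSS with polydatin. Its ratio over both steps was 0.583 (0.568 to 0.598). HNRNPD, also known as AUF1, a protein that binds AU-rich elements and steers mRNA decay, stood at 617, 509 and 359.7 CPM and reached the same ratio, 0.583 (0.565 to 0.602). HNRNPDL, the gene next to it on chromosome 4, stood at 351, 329.5 and 267 CPM and reached 0.759 (0.731 to 0.788). The count ratio of HNRNPDL to HNRNPD accordingly went from 0.570 (0.552 to 0.587) to 0.647 (0.626 to 0.668) and 0.741 (0.713 to 0.770), with intervals that do not overlap.

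Proteins of the hnRNP F/H group bind runs of guanine, and the genes of this group differed among themselves. HNRNPH1 stood at 845 CPM in control, 799.8 after DSS and 770.1 after DSS with polydatin, with 0.911 (0.890 to 0.933) of control. Its step from DSS to DSS with polydatin was 0.963 (0.941 to 0.986), a direction that turned under scaling by totals, to a log2 ratio of 0.03. HNRNPH3 stood at 416, 334 and 262 CPM, and was called lower at 0.630 (0.607 to 0.654), a call lost under scaling by totals and with the trend on GC content and length removed. HNRNPF was at 428, 387 and 310.2 CPM, and HNRNPH2 at 107, 99.2 and 74.4 CPM, with ratios of 0.724 (0.699 to 0.750) and 0.697 (0.649 to 0.748). The count ratio of HNRNPH1 to HNRNPH3 was 2.03 (1.98 to 2.09), 2.40 (2.33 to 2.47) and 2.94 (2.84 to 3.04).

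Among HNRNPK, HNRNPL, HNRNPLL, HNRNPM and HNRNPR, both ends of the range were found. HNRNPR, a relative of SYNCRIP with several RNA recognition motifs, stood at 408 CPM in control, 315 after DSS and 209 after DSS with polydatin. Its ratio over both steps, 0.512 (0.492 to 0.533), was the lowest of the 34 genes. HNRNPM, which binds GU-rich sequence, stood at 374, 310.4 and 219 CPM, with 0.584 (0.562 to 0.608). HNRNPK, a protein with KH domains that binds cytosine-rich sequence, stood at 807, 691 and 506 CPM, with 0.626 (0.610 to 0.643).

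HNRNPL, which binds CA repeats, was one of the few genes higher in DSS, at 172, 188 and 149.7 CPM, with 1.09 (1.04 to 1.15) and then 0.796 (0.756 to 0.837). Its paralog HNRNPLL, best known from lymphocyte splicing, stood at 55.0, 58.2 and 52.8 CPM. The interval of HNRNPLL against control included 1 in DSS, at 1.06 (0.971 to 1.16), and in DSS with polydatin, at 0.961 (0.878 to 1.05).

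HNRNPU, a nuclear scaffold protein also called SAF-A, stood at 1137, 944 and 735 CPM and was called lower at 0.646 (0.632 to 0.661), a call lost under scaling by totals. Its relatives HNRNPUL1 and HNRNPUL2 were not called. HNRNPUL1 stood at 384, 332 and 278 CPM and HNRNPUL2 at 67.8, 60.9 and 53.8 CPM, with ratios of 0.723 (0.696 to 0.750) and 0.793 (0.728 to 0.864). HNRNPU shares 3502 of 22512 exon bases with COX20 on the opposite strand, which stood at 89.6, 122 and 98.4 CPM. HNRNPUL1 shares 215 bases with TGFB1, at 20.1, 39.1 and 46.7 CPM, and HNRNPA2B1 shares 368 bases with CBX3, at 369.6, 329 and 239 CPM. HNRNPUL2 shares 2391 of 5416 exon bases with HNRNPUL2-BSCL2 on the same strand, which had no count, so the level of HNRNPUL2 is uncertain.

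Ratios taken within a library do not depend on how libraries are scaled. The summed SR counts over the summed hnRNP counts were 0.275 (0.273 to 0.277) in the control library, 0.305 (0.302 to 0.308) after DSS and 0.328 (0.324 to 0.331) after DSS with polydatin. The balance thus stood further on the SR side in each treated library, with intervals that do not overlap. Without SRSF3 and HNRNPA1, the genes with the most counts in each family, the ratios were 0.267, 0.299 and 0.328.

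Within the SR family the mix of genes differed between libraries. SRSF3 made up 17.5% of SR counts in control, 15.9% after DSS and 13.3% after DSS with polydatin, while SRSF6 made up 11.2%, 12.2% and 13.4%. The count ratio of SRSF6 to SRSF3 went from 0.640 (0.622 to 0.660) to 0.768 (0.745 to 0.792) and 1.01 (0.975 to 1.05), and that of SRSF11 to SRSF3 from 0.624 to 0.695 and 1.00. SRSF5 over SRSF7 was 0.959 (0.921 to 1.000), 1.06 (1.02 to 1.11) and 1.40 (1.33 to 1.47). Within the hnRNP family, HNRNPH1 over HNRNPA1 was 0.443 (0.434 to 0.451), 0.530 (0.519 to 0.541) and 0.700 (0.684 to 0.715). HNRNPH1 made up 6.59%, 7.54% and 9.42% of hnRNP counts. These pairs were picked after the values were seen, and they describe 3 libraries.

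**Figure D4:**
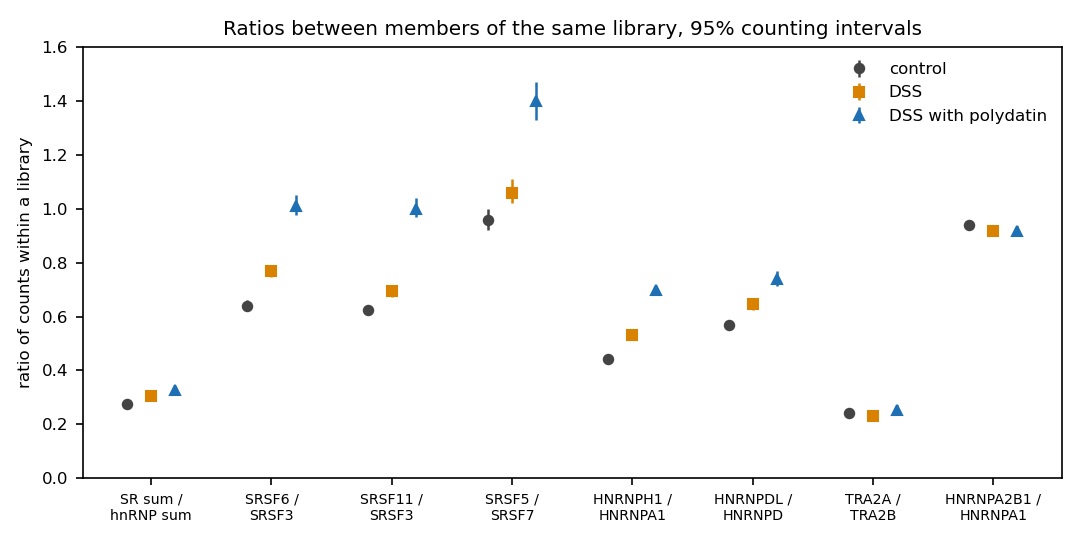
Ratios of counts between SR and hnRNP genes of the same library, with 95% counting intervals; the first position is the sum of SR over the sum of hnRNP counts and the others are pairs of genes, with 1 point per library. The 5 ratios in the middle, from SRSF6 over SRSF3 to HNRNPDL over HNRNPD, are highest in DSS with polydatin, while TRA2A over TRA2B and HNRNPA2B1 over HNRNPA1 move by little.

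Position and transcript features were compared with the ratios as a description. The 14 genes called lower in DSS with polydatin against control had a median transcript length of 3390.5 bases and a median GC content of 41.1%, and the 20 others 3219.5 bases and 45.1%. Their median level in control was 172 CPM per kilobase, against 89.4 for the others. Neighbouring genes did not share a ratio: HNRNPLL and SRSF7 lie 140.0 kb apart on chromosome 2 with ratios of 0.961 and 0.623, HNRNPR and SRSF10 lie 620.5 kb apart on chromosome 1 with 0.512 and 0.872, and HNRNPD and HNRNPDL lie 48.1 kb apart with 0.583 and 0.759.

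Sequence upstream of the transcription start is shown for the 2 lowest and the 2 highest genes in DSS with polydatin against control that have 1 RefSeq start and at least 120 bases of the 250 before it free of exons annotated in GENCODE release 29. A RefSeq promoter was found for 30 of the 34 genes, and 20 had 1 start. Of these, 13 had such an exon-free stretch. The lowest were ranked by the upper bound of the interval and the highest by the lower bound. Sequences are from RefSeq on GRCh38.p14, 5′ to 3′ on the strand of the gene. Capitals mark a match on either strand. The GC box was searched as GGGCGG. The CCAAT box was searched by the letters of its name. The E-box, which none of these stretches holds, was searched as CACGTG.
HNRNPR (chr1:23344337-23344534, minus strand): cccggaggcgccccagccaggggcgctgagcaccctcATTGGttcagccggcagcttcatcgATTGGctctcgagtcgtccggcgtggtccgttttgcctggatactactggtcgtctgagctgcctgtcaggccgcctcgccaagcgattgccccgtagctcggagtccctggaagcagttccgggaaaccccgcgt
SRSF3 (chr6:36594112-36594352, plus strand): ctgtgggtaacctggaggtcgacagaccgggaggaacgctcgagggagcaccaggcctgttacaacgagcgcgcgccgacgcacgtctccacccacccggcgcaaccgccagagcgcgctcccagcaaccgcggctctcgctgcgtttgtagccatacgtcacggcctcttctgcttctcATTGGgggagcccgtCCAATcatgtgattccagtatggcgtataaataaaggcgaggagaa
SRSF6 (chr20:43457646-43457895, plus strand): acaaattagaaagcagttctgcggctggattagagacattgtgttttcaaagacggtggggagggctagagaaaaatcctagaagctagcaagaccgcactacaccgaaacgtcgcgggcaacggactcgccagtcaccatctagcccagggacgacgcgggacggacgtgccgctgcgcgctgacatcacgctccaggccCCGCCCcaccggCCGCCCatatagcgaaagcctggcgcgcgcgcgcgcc
HNRNPLL (chr2:38603037-38603167, minus strand): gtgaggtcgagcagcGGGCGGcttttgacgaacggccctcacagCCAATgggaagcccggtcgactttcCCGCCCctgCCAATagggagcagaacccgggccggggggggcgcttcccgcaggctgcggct

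The stretches of HNRNPR and SRSF3, at 0.512 and 0.577 of control, each hold 2 CCAAT boxes. The stretch of SRSF6, at 0.909, holds 2 GC boxes, and that of HNRNPLL, at 0.961, holds 2 of each. Over all 250 upstream bases on both strands, with overlapping matches allowed, a CCAAT box was found in 11 of the 20 genes with 1 start and in 32.0% of all 35116 promoters. A GC box was found in 12 of 20 and 42.6%, and an E-box in 4 of 20 and 6.34%. A match is a run of letters, and no binding was measured.

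Other genes of splicing and its control were taken from 4 lists, and their counts are read against the 16.0% of all measured genes called higher and 12.4% called lower in DSS with polydatin against control. Of 11 genes for the kinases and the import receptor of SR proteins, 10 were measured, with 1 called higher and 1 lower in DSS with polydatin against control. CLK1, a nuclear kinase that phosphorylates SR proteins, was called higher in DSS, at 63.6, 104 and 107 CPM, with 1.64 (1.52 to 1.77) in DSS and 1.68 (1.56 to 1.81) in DSS with polydatin against control. CLK3 stood at 25.1, 36.2 and 37.2 CPM, with 1.45 (1.28 to 1.63) in DSS. CLK4 stood at 44.6, 51.9 and 59.8 CPM. CLK2 was lower than control, at 43.2, 34.4 and 37.4 CPM, with 0.797 (0.716 to 0.885) in DSS, and was not called. SRPK1, the mainly cytoplasmic SR protein kinase, was also lower, at 320.2, 276 and 212 CPM. It was called lower in DSS with polydatin against control with 0.663 (0.636 to 0.691), a call that was lost under scaling by totals. TNPO3, which imports SR proteins into the nucleus, stood at 129.7, 111 and 97.8 CPM.

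Of 37 other RNA-binding splicing regulators measured, 1 was called higher and 4 lower in DSS with polydatin against control, with a median log2 ratio of -0.24. That is 2.70% and 10.8% of the list, both below the shares over all measured genes. TAF15, an RNA-binding protein that also associates with TFIID, stood at 478, 259.6 and 224 CPM. It was also called lower in DSS against control, at 0.544 (0.525 to 0.563). SYNCRIP, also called hnRNP Q and closest in kind to HNRNPR, stood at 185, 180.4 and 116 CPM, and it was called lower with polydatin against DSS, at 0.643 (0.608 to 0.679). The other lower genes were PTBP2, with 0.661 (0.577 to 0.758), and RBM3, a cold-inducible protein, with 0.637 (0.608 to 0.667). MBNL2 was called higher, at 62.2, 73.9 and 106 CPM, with 1.70 (1.58 to 1.83). Scaling by totals left TAF15 lower and MBNL2 higher, and ended the calls of SYNCRIP, PTBP2 and RBM3.

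Of 20 genes for splice site recognition by the U1 and U2 particles, 5 were called lower in DSS with polydatin against control, beside 12.4% of all measured genes and 13.4% of the abundant ones. Under scaling by totals 3 were called there, beside 8.33% of all measured genes. None was called lower in DSS against control or in DSS with polydatin against DSS, beside 5.81% and 2.60% of all measured genes. SF3A3 was lowest, at 175, 119 and 92.0 CPM, with 0.526 (0.495 to 0.558), followed by the U1 proteins SNRPC, with 0.577 (0.539 to 0.617), and SNRPA, with 0.607 (0.560 to 0.657). SF3B5, with 0.645 (0.593 to 0.701), and SF3B6, with 0.665 (0.628 to 0.704), lost their calls under scaling by totals. The median of the list was -0.26. Of 14 genes of nonsense-mediated decay, MAGOH, of the exon junction complex, was the single gene called, at 68.0, 50.6 and 35.9 CPM, with 0.528 (0.479 to 0.582), which is 7.14% of the list. SMG1, a kinase of the pathway, was on the other side of 1, with 1.15 (1.11 to 1.18). The median of this list was -0.24. Set side by side for DSS with polydatin against control, the medians of these 4 lists ran from -0.26 to -0.19. That of the SR genes, -0.26, stood at the low end of this range, over genes spread from -0.80 to -0.09. That of the hnRNP genes was -0.63.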

How the data were processed

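The authors deposited raw read counts per Ensembl gene for the 3 libraries, as whole numbers with no normalization. The submitters' processing notes name HISAT2 and GRCh38. Per the labels' protocols, RNA came from a Trizol extraction and the libraries from a VAHTS kit. The counting program, its annotation and whether it used strand are not stated in those sources. Of 60664 rows, 60463 had a symbol. Gene types, positions and transcript lengths (the longest coding transcript of the basic set) came from GENCODE release 29.

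Counts were scaled with TMM factors (edgeR 4.0.16 in R 4.3.3) of 0.971 (control), 0.984 (DSS) and 1.046 (with polydatin). Genes under 1 CPM in every library were left out. Ratios of scaled counts carry exact 95% Clopper-Pearson intervals on the counts of both libraries (Python 3.11.15, scipy 1.17.1). The method was tested on data simulated with counting error alone, which tells nothing of the spread between cultures. A gene was called at 1.5-fold with an interval excluding 1. CPM values and at least 1 ratio were given for called genes and for the 4 highest and 4 lowest of each comparison. The highest were ranked by the lower bound of the interval and the lowest by the upper bound, not by the ratio. The other SR and hnRNP genes were named after their values were seen. From each list of other splicing genes up to 3 highest and 3 lowest per comparison were to be named. PTBP2, SF3B5 and SF3B6 were named for their calls. The genes and lists were chosen with earlier results of these data known. Alternatives were library totals, DESeq2 1.42.0 size factors, other filters and folds, 2 counts added, thinning, and removal of a trend on GC content and length (statsmodels 0.14.6). Figures were drawn with matplotlib 3.10.9. A leukocyte marker of the list is not reported here.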

Additional observations from a re-analysis of the deposited data

How the results depend on the processing

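Scaling by library totals alone moved the median log2 ratio of all genes in DSS with polydatin against control from -0.02 to 0.09, and that of the 34 SR and hnRNP genes from -0.51 to -0.40. The distance between both was -0.49 under either scaling. A change of scaling moves all genes by the same log2 amount, so this distance could hardly differ and is no check on the result. Under totals the hnRNP median in that comparison was -0.52 and the SR median -0.15. In DSS with polydatin against DSS, the medians under totals were -0.25 for the 34 genes, -0.18 for the SR genes and -0.27 for the hnRNP genes, and 0 genes were called lower in place of 1. Of all measured genes, 1.57% were then called lower in place of 2.60%. Under totals the log2 ratio of HNRNPH1 in DSS with polydatin against DSS was 0.03, and that of SRSF4 in DSS with polydatin against control was 0.00. Of the 14 genes called lower in DSS with polydatin against control, 10 were called under totals, 14 (with TRA2B added) under DESeq2 size factors, and 11 (with HNRNPAB and HNRNPUL1 added) with the trend on GC content and length removed. The shares of all measured genes called lower in these settings were 8.33%, 13.7% and 13.4%, beside 12.4% in the main one. Leaving out no gene with a count brought SRSF12 in and moved the SR median in DSS with polydatin against control from -0.26 to -0.37.

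With a threshold of 5 to 4, 1 gene was called higher and 5 lower in DSS against control, 19 lower in DSS with polydatin against DSS and 24 lower in DSS with polydatin against control. The shares of all measured genes called lower were 14.2%, 10.5% and 24.3%, and those called higher 16.8%, 11.3% and 23.5%. With a 2-fold rule, 0 were called in any comparison, beside 1.76%, 0.460% and 3.27% of all measured genes called lower and 4.24%, 1.94% and 8.53% called higher. The log2 change of the SR sum over the hnRNP sum, without SRSF3 and HNRNPA1, was 0.13 in place of 0.10 in DSS with polydatin against DSS and 0.30 in place of 0.25 against control. As a share of protein-coding counts not mitochondrially encoded, the 34 genes stood at a log2 ratio of -0.49 in place of -0.48 in DSS with polydatin against control. Of 462 values of the 22 genes named by rule under 7 alternatives, 389 stayed within their counting interval, 71 moved outside it and 2 turned in sign. The other filters kept the scaling and so could not move these values. Adding 2 counts could hardly move them, since the lowest count of a measured gene was 921. The 389 is therefore no measure of stability.

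No paired analysis was possible because each group has 1 library. Counting error is small for these genes, as far as reads are not copies of 1 molecule, and the spread between cultures is unknown.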
